A study of Mus musculus with 6 samples.

Results

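Renal glucose production and fructose use were followed through 8 genes, *Pck1*, *Pcx*, *Fbp1*, *G6pc*, *Slc37a4*, *Khk*, *Tkfc* and *Slc2a2*, chosen by symbol from the 21367 genes of 1 mRNA sequencing experiment. The data came from 6 kidneys, 3 from *Ptpn6*+/mev mice and 3 from wild-type littermates, each 7 weeks old and on a C57BL/6 background. *Ptpn6*+/mev mice are heterozygous in every cell for viable motheaten, a splice site mutation of *Ptpn6* present in 1 copy, and *Ptpn6* encodes the phosphatase SHP-1. In all 6 mice the right kidney was removed, blood flow to the remaining kidney was stopped for 34 min, and that kidney was taken 24 h after flow returned, so both groups had ischemia-reperfusion injury (IRI) and no uninjured kidney was analysed here. Each mouse gave 1 poly-A library from left kidney tissue.

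The proximal tubule is the part of the nephron that makes glucose, mainly from lactate, glutamine and glycerol. Pyruvate carboxylase and phosphoenolpyruvate carboxykinase open the route, fructose-1,6-bisphosphatase passes its regulated middle step, and glucose-6-phosphatase, fed by its own transporter, releases free glucose that leaves the cell through GLUT2. The same cells take fructose from the filtrate, phosphorylate it with ketohexokinase, and, once it is split, return it to the triose pool through triokinase. The kidney is known as the second organ of gluconeogenesis after the liver, and injured proximal tubule cells are known for losing oxidative and gluconeogenic gene expression.

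Expression is given as FPKM, the fragments of a gene scaled to the length of its transcript and to the total fragments of the library, which allows levels of different genes to be compared. Differences between groups are log2 fold changes of *Ptpn6*+/mev against wild-type mice, fitted to the counts of all 13036 genes that passed a filter on low counts with edgeR's quasi-likelihood model, with p-values adjusted by the Benjamini-Hochberg method (FDR). All 8 genes passed the filter. They were put together with this contrast already known, so their differences are given as a description with a standard error and without a test of their own.

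Library totals lay between 10271590 and 12361745 counts. The 8 genes together held 0.147% to 0.178% of the counts in *Ptpn6*+/mev libraries and 0.259% to 0.549% in wild-type libraries, and none of them had a fractional count in any library. *Ptpn6* itself averaged 13.4 ± 1.42 FPKM in *Ptpn6*+/mev kidneys (SD, n = 3) against 14.6 ± 3.38 FPKM in wild-type kidneys (SD, n = 3). EdgeR's quasi-likelihood test gave this difference an adjusted p of 0.715. On the log2 scale the difference came to -0.19, and with an error of 0.17 it cannot separate no change from a modest drop. The paper describes SHP-1 expression as decreased in heterozygotes, and no protein was measured here. Wild-type replicate 2 stood apart from the other libraries. Its normalization factor was 0.929 against 0.994 to 1.03 elsewhere, and its summed FPKM of 4 endothelial markers was 44.5, where the other 5 libraries had 103 to 111.

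The stretches upstream of *Pck1*, *G6pc* and *Pcx* are shown because *Pck1* had the largest difference, *G6pc* the only overlap between groups, and *Pcx* was, with *Tkfc*, 1 of the 2 genes that passed the FDR threshold over all genes. They come from RefSeq on GRCm38.p6, run 5′ to 3′ on the strand of the gene, and are limited to bases outside every exon of the GENCODE M21 annotation of GRCm38. They cover chr2:173152823-173153047 on the plus strand for *Pck1*, chr11:101367466-101367560 on the plus strand for *G6pc* and chr19:4510222-4510471 on the plus strand for *Pcx*. The window that RefSeq gives for *Tkfc* lies inside the gene as GENCODE annotates it, before the start of a shorter form, and is not shown. Capitals mark matches on either strand to the letters of the core of a cAMP response element (TGACG) or an E-box (CACGTG), and the stretch of *G6pc* holds no match.
Pck1: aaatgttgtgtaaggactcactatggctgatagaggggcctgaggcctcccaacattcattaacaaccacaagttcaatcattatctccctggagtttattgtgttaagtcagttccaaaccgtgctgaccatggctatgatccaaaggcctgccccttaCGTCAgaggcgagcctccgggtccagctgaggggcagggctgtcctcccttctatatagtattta
G6pc: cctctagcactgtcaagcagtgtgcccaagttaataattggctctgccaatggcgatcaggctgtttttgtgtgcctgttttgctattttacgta
Pcx: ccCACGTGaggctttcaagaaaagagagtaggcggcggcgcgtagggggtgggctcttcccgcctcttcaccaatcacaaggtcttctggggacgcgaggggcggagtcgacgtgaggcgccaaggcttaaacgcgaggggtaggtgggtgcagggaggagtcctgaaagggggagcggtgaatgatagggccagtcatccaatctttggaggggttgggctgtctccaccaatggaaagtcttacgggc

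RefSeq held 11 upstream windows of 250 bases for the 8 genes, all 8 being matched. The cAMP response element core occurred in windows of *Pck1*, *Khk* and *Slc37a4*, and in 17.8% of all 32851 windows. In *Pck1* it began at base -90 from the RefSeq start. The E-box occurred in *Pcx* and *Khk*, against 6.02% of all windows. The TATAAA motif occurred in *G6pc* and *Slc37a4*, against 12.4%. The letters of an HNF4 motif (CAAAGTCCA) and a FOXO motif (TGTTTAC) were found in none of the 11 windows, against 0.384% and 3.17% of all windows. In *Khk* the core and the E-box lie in bases that GENCODE annotates as exon, and they are not shown. The matches are letters in these windows and were not tied to any measured binding.

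All 8 genes had a lower fitted level in *Ptpn6*+/mev mice, where 50.5% of all tested genes had a log2 fold change below 0. The log2 fold changes ran from -1.88 for *Pck1* to -0.66 for *Slc37a4*, with a median of -0.94, and the median over all tested genes was -0.002. In 7 of the 8 genes every *Ptpn6*+/mev mouse was below every wild-type mouse in FPKM, as in 6.38% of all tested genes, and *G6pc* was the exception. On the scale of log2 CPM with TMM factors the number was also 7, as in 9.8% of all tested genes. With a threshold of 0.05 on the FDR, 2 of the 8 were called lower by the quasi-likelihood model of edgeR, *Tkfc* and *Pcx*, as were 0.069% of all tested genes. Since the genes were chosen on this contrast, nothing is read from these shares. The count of 2 changed with the test and with the libraries: it was 7 with edgeR's exact test and with DESeq2, which called 1.78% and 1.88% of all tested genes lower, 5 without wild-type replicate 2 and 6 without wild-type replicate 3, with 1.01% and 0.384% of all tested genes called lower. It was 1 without *Ptpn6*+/mev replicate 2 or wild-type replicate 1, and 0 without *Ptpn6*+/mev replicate 1 or 3. Over all tested genes these 4 fits, in the order just given, called 0.0537%, 0.046%, 0.00767% and 0.0% lower. Without wild-type replicate 2, which stood apart, the log2 fold changes of the 8 genes ran from -1.36 for *Pck1* to -0.52 for *G6pc*, with -0.78 for *Fbp1*, -0.58 for *Slc37a4* and -0.91 for *Khk*.

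**Figure D1:**
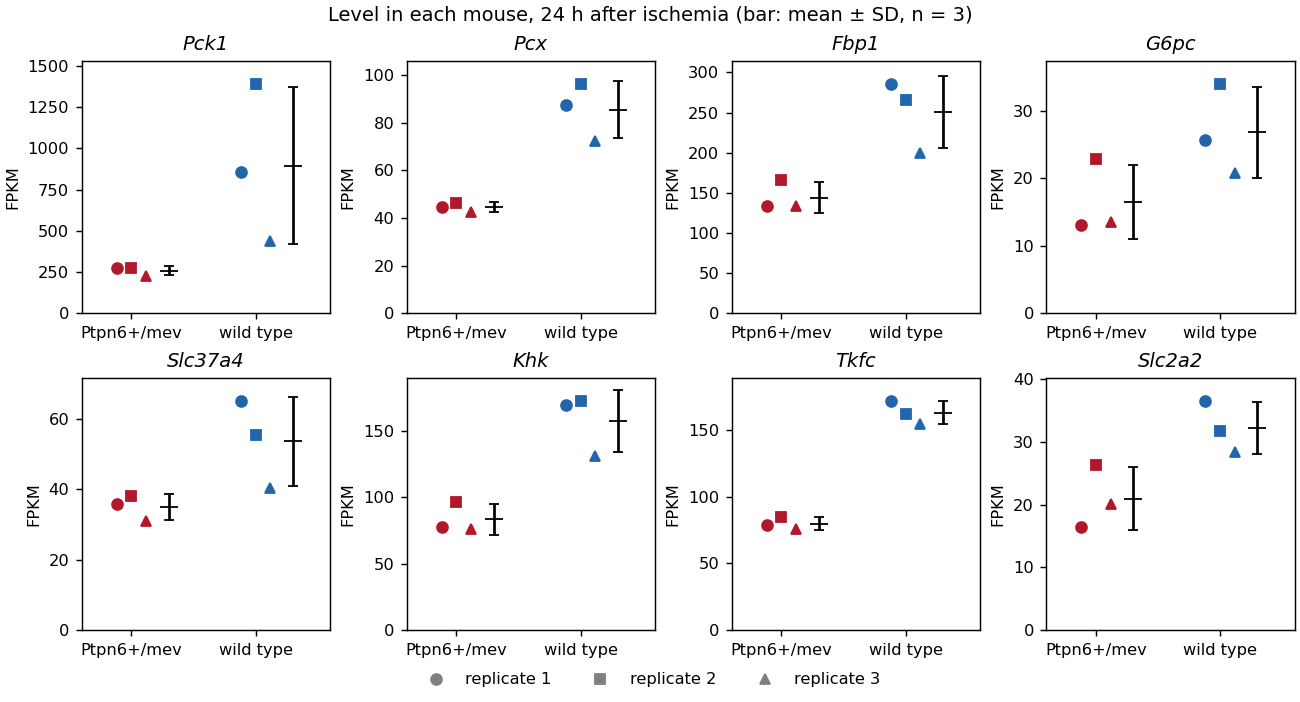
FPKM of each of the 8 genes in each mouse, on linear axes from 0, with 1 point per mouse, shapes for replicate numbers and a bar for the mean ± SD of 3 mice. Only *G6pc* shows an overlap, where *Ptpn6*+/mev replicate 2 at 22.8 lies above wild-type replicate 3 at 20.7.

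*Pck1*, on chromosome 2 from 173153048 to 173159273, encodes the cytosolic phosphoenolpyruvate carboxykinase, which turns oxaloacetate into phosphoenolpyruvate and is the classic control point of gluconeogenesis. In FPKM, *Ptpn6*+/mev replicates 1, 2 and 3 stood at 274.3, 274.62 and 226.64 and the wild-type replicates at 858.28, 1388.53 and 437.69. The *Ptpn6*+/mev mice lay close together, with a coefficient of variation of 10.7%, while that of the wild-type mice was 53.3%. The *Ptpn6*+/mev mean was 28.9% of the wild-type mean. The log2 fold change was -1.88 (standard error 0.38), and it was -1.36 without wild-type replicate 2, the highest mouse, and -2.22 without wild-type replicate 3, the lowest of its group. By mean FPKM *Pck1* ranked 70 among all genes in wild-type kidneys and 308 in *Ptpn6*+/mev kidneys. From the lowest upward, its log2 fold change ranked 14 among the 13036 tested genes.

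*Pcx*, on chromosome 19 from 4510472 to 4621752, encodes pyruvate carboxylase, the mitochondrial enzyme that makes oxaloacetate from pyruvate and so supplies the step that *Pck1* catalyses. FPKM values were 44.71, 46.45 and 42.37 among *Ptpn6*+/mev mice, against 87.34, 96.23 and 72.52 among wild-type mice, each in replicate order. The groups were well apart, the lowest wild-type mouse being 1.56 times the highest *Ptpn6*+/mev mouse. Its log2 fold change came to -1.01 (standard error 0.13), and it stayed between -1.14 and -0.87 with each library left out in turn. *Lrfn4* lies within *Pcx* on the opposite strand, and its counts of 143 to 231 per library were small beside the 1848 to 4253 of *Pcx*. The library kit does not mark strand.

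*Fbp1*, on chromosome 13 from 62864753 to 62888282, encodes fructose-1,6-bisphosphatase, which reverses the phosphofructokinase step of glycolysis. By replicate number, *Ptpn6*+/mev kidneys had 133.23, 166.32 and 133.44 FPKM and wild-type kidneys 285.59, 265.84 and 200.25 FPKM. The ranges of the groups were separate, and the log2 fold change was -0.87 (standard error 0.16). *Fbp2*, the second isoform of this enzyme, was also present in these kidneys. It averaged 42.5 ± 6.61 FPKM in *Ptpn6*+/mev kidneys (SD, n = 3) against 39.3 ± 3.16 FPKM in wild-type kidneys (SD, n = 3). This was a log2 fold change of 0.04 (standard error 0.13, adjusted p = 0.933 in edgeR's quasi-likelihood test).

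*G6pc*, on chromosome 11 from 101367561 to 101377903, encodes the catalytic subunit of glucose-6-phosphatase, which releases free glucose in the endoplasmic reticulum. In FPKM, *Ptpn6*+/mev replicates 1, 2 and 3 stood at 13.14, 22.8 and 13.54 and the wild-type replicates at 25.65, 33.92 and 20.71. *Ptpn6*+/mev replicate 2 lay inside the wild-type range and the other 2 *Ptpn6*+/mev mice below it. The log2 fold change was -0.78 (standard error 0.27), the least certain of the 8 relative to its size, and leaving out *Ptpn6*+/mev replicate 2 gave -1.09 and leaving out wild-type replicate 2 gave -0.52. *G6pc* also had the lowest counts of the 8 genes, from 327 to 902 per library.

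*Slc37a4*, on chromosome 9 from 44396852 to 44402968, encodes the transporter that brings glucose-6-phosphate to that enzyme. FPKM values were 35.77, 38.28 and 30.96 among *Ptpn6*+/mev mice, against 65.25, 55.39 and 40.34 among wild-type mice, each in replicate order. The groups were separated by a narrow margin, since wild-type replicate 3 was 1.05 times the highest *Ptpn6*+/mev mouse. The log2 fold change of -0.66 (standard error 0.17) was the smallest of the 8. *Mir7085* lies within *Slc37a4* on the same strand, over 66 bases.

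*Slc2a2*, on chromosome 3 from 28697903 to 28731359, encodes GLUT2, the carrier through which glucose crosses the basolateral membrane of the proximal tubule. By replicate number, *Ptpn6*+/mev kidneys had 16.38, 26.27 and 20.09 FPKM and wild-type kidneys 36.54, 31.67 and 28.32 FPKM. Here too the margin was narrow, at 1.08 times. The log2 fold change was -0.69 (standard error 0.18) and lay between -0.89 and -0.54 with each library left out in turn. The antisense gene *1700112D23Rik*, not analysed here, overlaps *Slc2a2* by 28693 bases on the opposite strand, counted over the whole genes. Whether their exons overlap was not checked, and without strand some reads could belong to either gene.

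*Khk*, on chromosome 5 from 30921431 to 30931248, encodes ketohexokinase, which phosphorylates fructose. In FPKM, *Ptpn6*+/mev replicates 1, 2 and 3 stood at 77.33, 96.52 and 75.99 and the wild-type replicates at 169.62, 172.68 and 130.81. The lowest wild-type mouse was 1.36 times the highest *Ptpn6*+/mev mouse, and the log2 fold change was -1.03 (standard error 0.16). *Khk* gives rise to splice forms with different affinity for fructose, and the values per gene do not separate them.

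*Tkfc*, on chromosome 19 from 10587791 to 10605654, encodes triokinase, which phosphorylates the glyceraldehyde released from fructose. FPKM values were 78.81, 84.97 and 75.92 among *Ptpn6*+/mev mice, against 172.02, 162.23 and 154.7 among wild-type mice, each in replicate order. *Tkfc* had the widest separation of the 8 genes, the lowest wild-type mouse being 1.82 times the highest *Ptpn6*+/mev mouse. Its spread within groups was small, with a coefficient of variation of 5.79% in *Ptpn6*+/mev mice and 5.33% in wild-type mice. For *Tkfc* the log2 fold change came to -1.10 (standard error 0.09), and it stayed between -1.16 and -1.06 with each library left out in turn. On the opposite strand *Ddb1* overlaps the 5′ start of *Tkfc* by 328 bases and *Cyb561a3* its 3′ end by 8171 bases, so some reads could belong to either gene. The counts of *Ddb1* were between 4733 and 6875 and those of *Cyb561a3* between 105 and 175.

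**Figure D2:**
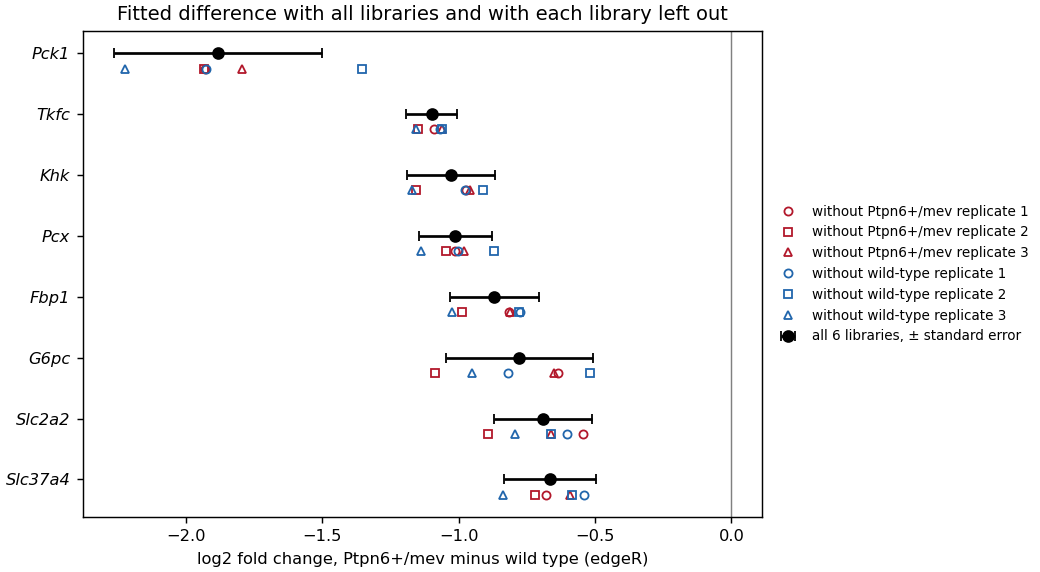
Log2 fold change of each gene between *Ptpn6*+/mev and wild-type mice from edgeR, with all 6 libraries (filled circles, bars of 1 standard error) and with each library left out (open symbols, red for *Ptpn6*+/mev and blue for wild-type). Values stay below 0 throughout, and the widest spread is that of *Pck1*, from -2.22 to -1.36.

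Within each group 1 position in the order of the mice, which the choice of genes between groups did not use, was shared by the 8 genes. Within the *Ptpn6*+/mev group replicate 2 was the highest in all 8 genes, although in *Pck1* it exceeded replicate 1 by only 274.62 to 274.3. Within the wild-type group replicate 3 was the lowest in all 8. These 2 mice were singled out after their values were seen. Among all tested genes, *Ptpn6*+/mev replicate 2 was highest in its group in 36.2%, wild-type replicate 3 was lowest in its group in 24.7%, and both held for 8.32%. Both held for 8 of 19 genes of substrate supply, 2 of 8 genes of the fructose and polyol pathway, 2 of 10 proximal tubule markers and 1 of 12 other steps of gluconeogenesis. They held for 0 of 4 genes of glucose transport, 0 of 12 opposing glycolytic enzymes, 0 of 16 regulators and 0 of 6 markers of injured tubules. The highest wild-type mouse was replicate 1 in 4 of the 8 genes (*Fbp1*, *Slc37a4*, *Tkfc* and *Slc2a2*) and replicate 2 in the other 4, and the lowest *Ptpn6*+/mev mouse was replicate 1 in 3 genes and replicate 3 in 5. The 8 genes share cells and libraries, so the repeated positions count mice and not independent measurements.

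**Figure D3:**
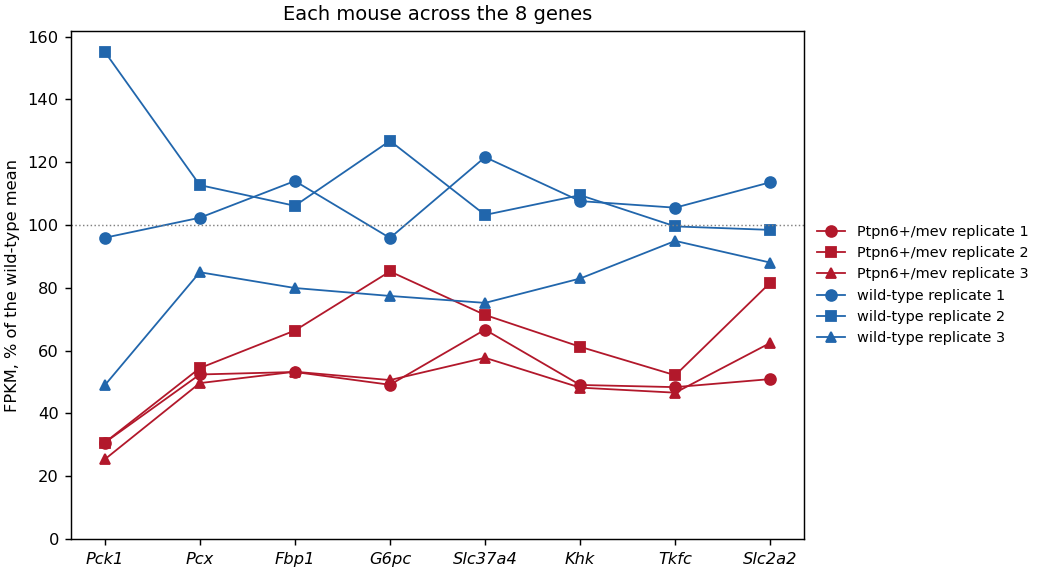
FPKM of each mouse as a percentage of the wild-type mean of the gene, with 1 line per mouse (red, *Ptpn6*+/mev; blue, wild-type) and genes in arbitrary order along the axis. Wild-type replicate 3 forms the lower edge of its group in every gene, from 48.9% for *Pck1* to 94.9% for *Tkfc*, and *Ptpn6*+/mev replicate 2 the upper edge of its group, from 30.7% for *Pck1* to 85.2% for *G6pc*.

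Summed over the 8 genes, FPKM averaged 683 ± 69.1 in *Ptpn6*+/mev kidneys (SD, n = 3) against 1664 ± 561 in wild-type kidneys (SD, n = 3). *Pck1* carried much of the sum and, among wild-type mice, most of its spread. Without *Pck1* the sums were 424 ± 49.6 (SD, n = 3) and 769 ± 106 (SD, n = 3).

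Ratios of FPKM within a mouse do not depend on the size of its library. *Khk* and *Tkfc*, successive kinases of fructose breakdown, were present at nearly equal levels in every mouse, the ratio of *Khk* to *Tkfc* lying between 0.981 and 1.14 in *Ptpn6*+/mev mice and between 0.846 and 1.06 in wild-type mice. *G6pc* and *Slc37a4*, which work as a pair, also kept overlapping ratios, from 0.367 to 0.596 and from 0.393 to 0.612. The ratio of *Pck1* to its mitochondrial isoform *Pck2* was between 24.6 and 28.5 in *Ptpn6*+/mev mice and between 45.0 and 167 in wild-type mice. The ratio of *Fbp1* to *Fbp2* was between 2.87 and 4.77 in *Ptpn6*+/mev mice and between 5.12 and 7.33 in wild-type mice. The ratio of *G6pc* to its isoform *G6pc3* overlapped, from 0.394 to 0.633 in *Ptpn6*+/mev mice and from 0.604 to 0.994 in wild-type mice. So did that of *Pck1* to *Pcx*, from 5.35 to 6.13 and from 6.04 to 14.4. These ratios come from the same contrast as the choice of genes and were not tested.

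Likeness of pattern was measured as the mean absolute difference between mean-centred log2 CPM values over the 6 libraries, compared over 11852 genes with a mean FPKM of at least 1. The genes closest to *Tkfc* were *Pcx* at 0.097, *Khk* at 0.10 and *Nr1i2* at 0.11, and *Fbp1* came 7th. The genes closest to *Pck1* were *Notum* at 0.072, *Gbp6* at 0.12 and *Cyp4a10* at 0.14. The other 7 genes came between 58th, *Khk* at 0.43, and 218th, *Slc2a2*, in likeness to *Pck1*. With 6 libraries in 2 groups such a likeness is a description only.

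In the pathway annotation that the authors deposited with the table, glycolysis and gluconeogenesis held *Pck1*, *Fbp1* and *G6pc*, and fructose and mannose metabolism held *Fbp1*, *Khk* and *Tkfc*. The glucagon signaling pathway held 4 of the 8, *Pck1*, *Fbp1*, *G6pc* and *Slc2a2*. Leaving the 8 genes out, 51 further tested genes carried the annotation for glycolysis and gluconeogenesis. Their median log2 fold change was -0.08, and none was called by edgeR's quasi-likelihood test at an FDR under 0.05. At an unadjusted p under 0.05, 12 were lower and 0 higher, while edgeR's exact test called 6 lower and DESeq2 8. Over all tested genes 12.2% were at that p in either direction and 6.71% were lower, and the exact test and DESeq2 called 1.78% and 1.88% lower. Without wild-type replicate 2 the median of the 51 was -0.03. The quasi-likelihood test then called 3 of them lower, and 1.01% of all tested genes. For fructose and mannose metabolism there were 31 further tested genes with a median of -0.01. The quasi-likelihood test called 0 of them, 2 had an unadjusted p under 0.05, and the exact test and DESeq2 each called 1. The annotation for PPAR signaling, which holds *Pck1*, had 62 further tested genes with a median of -0.34, and -0.25 without wild-type replicate 2. None was called by edgeR's quasi-likelihood test, 22 were lower and 2 higher at an unadjusted p under 0.05, the exact test called 11 lower and DESeq2 7, and 8 were called lower and 1 higher when wild-type replicate 2 was left out. The citrate cycle, which holds *Pck1* and *Pcx*, had 28 further tested genes, of which 27 had a log2 fold change below 0. The median of the 28 was -0.19, and -0.13 without wild-type replicate 2. Here 6 were lower at an unadjusted p under 0.05, the quasi-likelihood test, the exact test and DESeq2 called 0, and 1 was called lower without wild-type replicate 2. The pentose phosphate pathway, which holds *Fbp1*, had 26 with a median of -0.14, of which 5 were lower and 1 higher at that p, 0 were called by the quasi-likelihood test and 2 lower by each of the other tests. Without wild-type replicate 2 the median of the 26 was -0.04, and the quasi-likelihood test called 0.

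The neighbouring genes were also read from 6 lists written by role in the pathway, with 73 genes of which 71 were tested. None of the 71 passed an FDR of 0.05 in the quasi-likelihood model of edgeR, where 0.138% of all tested genes did. With the threshold of 0.05 on the unadjusted p, 17 were lower and 0 higher, against 6.71% of all tested genes lower at that p. EdgeR's exact test called 11 lower and DESeq2 12 lower, and neither called any higher. The quasi-likelihood test called 6 lower when wild-type replicate 2 was left out, as it did 1.01% of all tested genes, and 4 when wild-type replicate 3 was left out.

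**Figure D4:**
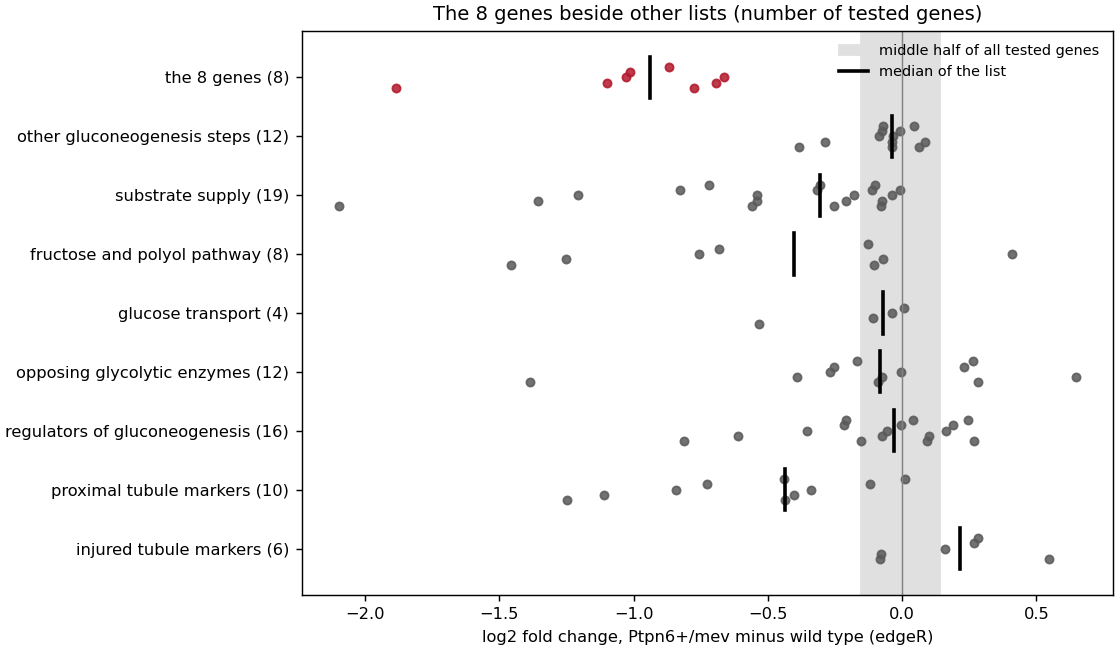
Log2 fold changes between *Ptpn6*+/mev and wild-type mice from edgeR, with 1 point per tested gene, a black line at the median of each list and a grey band for the interquartile range of all tested genes, from -0.15 to 0.14. The 8 genes have a median of -0.94, the fructose and polyol pathway -0.40, proximal tubule markers -0.44 and the other steps of gluconeogenesis -0.04.

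The steps of gluconeogenesis that it shares with glycolysis, together with the other isoforms of its own enzymes, gave 12 tested genes with a median log2 fold change of -0.04. The quasi-likelihood test called 0 of them and the exact test 0, while 1 had an unadjusted p under 0.05, *Eno1*, which DESeq2 called. *Aldoa*, which encodes aldolase A, averaged 882 ± 45.3 FPKM in *Ptpn6*+/mev kidneys (SD, n = 3) against 870 ± 50.8 FPKM in wild-type kidneys (SD, n = 3). *Tpi1*, for triosephosphate isomerase, had 541 ± 19.7 (SD, n = 3) and 542 ± 25.03 (SD, n = 3). Both differed by less than the spread between mice. *Eno1*, for enolase, had the largest difference of this list, with a log2 fold change of -0.38 (standard error 0.08, adjusted p = 0.105 in edgeR's quasi-likelihood test). It had fractional counts in every library, so reads may be shared with a near copy.

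In the list of substrate supply all 19 genes had a log2 fold change below 0, with a median of -0.31. The quasi-likelihood test called 0 of them, 6 had an unadjusted p under 0.05, and edgeR's exact test and DESeq2 each called 4 lower. The lactate dehydrogenase gene *Ldha* averaged 756 ± 15.4 FPKM in *Ptpn6*+/mev kidneys (SD, n = 3) against 759 ± 49.6 FPKM in wild-type kidneys (SD, n = 3). *Ldhb* had 735 ± 36.9 (SD, n = 3) and 827 ± 106 (SD, n = 3), and *Mpc1*, for a subunit of the mitochondrial pyruvate carrier, had 295 ± 15.8 (SD, n = 3) and 281 ± 31.9 (SD, n = 3). *Ldha* and *Mpc1* differed by less than the spread between mice, and *Ldhb* by less than the SD of wild-type mice but more than that of *Ptpn6*+/mev mice. *Slc38a3*, which encodes a glutamine transporter, had the largest difference, with a log2 fold change of -2.10 (standard error 0.46, adjusted p = 0.122 in edgeR's quasi-likelihood test). By replicate number, *Ptpn6*+/mev kidneys had 7.05, 7.49 and 3.1 FPKM and wild-type kidneys 23.37, 37.16 and 12.51 FPKM. Without wild-type replicate 2 its log2 fold change was -1.60 and the median of the list was -0.11.

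Of the 8 genes of the fructose and polyol pathway outside the kinases, 4 had groups that did not overlap, with the *Ptpn6*+/mev mice lower, against 6.38% of all tested genes. The quasi-likelihood test called 0 of the 8, 4 had an unadjusted p under 0.05, and edgeR's exact test and DESeq2 each called 3 lower, *Slc2a5* and *Slc5a10* among them, where over all tested genes 6.71% were lower at that p and 1.78% and 1.88% were called lower by these tests. *Slc5a10*, a sodium-coupled carrier of mannose and fructose, stood at 39.25, 31.73 and 34.06 FPKM in *Ptpn6*+/mev mice, by replicate number, against 80.75, 121.03 and 70.41 FPKM among wild-type mice. Its log2 fold change of -1.46 (standard error 0.22, adjusted p = 0.0685 in edgeR's quasi-likelihood test) was the largest of the list, at -1.14 without wild-type replicate 2, and fractional counts in 5 libraries leave its level uncertain. *Slc2a5*, which encodes the fructose transporter GLUT5, was scarce, with an FPKM of 4.1 ± 1.2 (SD, n = 3) and 9.28 ± 1.52 (SD, n = 3) in *Ptpn6*+/mev and wild-type kidneys. *Akr1b3* and *Sord*, the enzymes that make fructose from glucose by way of sorbitol, were not called: their log2 fold changes were 0.41 (standard error 0.27) and -0.13 (standard error 0.10), with adjusted p of 0.62 and 0.699 in edgeR's quasi-likelihood test. With each library left out in turn they ran from 0.15 to 0.65 for *Akr1b3* and from -0.20 to -0.05 for *Sord*.

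Glucose transport other than GLUT2 gave 4 tested genes, none called, with 1 at an unadjusted p under 0.05. *Slc5a2*, for the early proximal glucose carrier SGLT2, averaged 81.8 ± 3.64 FPKM in *Ptpn6*+/mev kidneys (SD, n = 3) against 79.5 ± 14.1 FPKM in wild-type kidneys (SD, n = 3). *Pdzk1ip1*, for its accessory protein, had 510 ± 41.3 (SD, n = 3) and 484 ± 11.3 (SD, n = 3), and *Slc2a1*, for GLUT1, had 48.0 ± 2.81 (SD, n = 3) and 49.1 ± 7.01 (SD, n = 3). *Slc5a1*, for the later carrier SGLT1, was the gene at an unadjusted p under 0.05, with a log2 fold change of -0.53 (standard error 0.11, adjusted p = 0.103 in edgeR's quasi-likelihood test). It was also called by the exact test, by DESeq2 and without wild-type replicate 2.

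The enzymes that drive glycolysis in the opposite direction gave 12 tested genes with a median log2 fold change of -0.08 and no call, and 2 had an unadjusted p under 0.05. *Pkm*, the most abundant pyruvate kinase gene here, averaged 263 ± 22.0 FPKM in *Ptpn6*+/mev kidneys (SD, n = 3) against 283 ± 21.1 FPKM in wild-type kidneys (SD, n = 3), and *Hk1* had 36.4 ± 3.61 (SD, n = 3) and 36.8 ± 4.68 (SD, n = 3). *Pklr*, for the pyruvate kinase of liver, proximal tubule and red cells, had 35.6 ± 5.33 (SD, n = 3) and 91.6 ± 19.3 (SD, n = 3). This was a log2 fold change of -1.39 (standard error 0.22, adjusted p = 0.0685 in edgeR's quasi-likelihood test). Without wild-type replicate 2 it was -1.20. *Pklr* had fractional counts in 5 libraries, and the exact test and DESeq2 called it.

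The regulators of gluconeogenesis gave 16 tested genes with a median log2 fold change of -0.03. None was called, 3 had an unadjusted p under 0.05, and edgeR's exact test and DESeq2 each called 2 lower, *Ppara* among them. *Hnf4a*, a nuclear receptor of hepatocytes and the proximal tubule, averaged 144 ± 19.2 FPKM in *Ptpn6*+/mev kidneys (SD, n = 3) against 176 ± 24.1 FPKM in wild-type kidneys (SD, n = 3), a log2 fold change of -0.36 (standard error 0.13, adjusted p = 0.308 in edgeR's quasi-likelihood test). *Mlxipl*, for the carbohydrate response factor ChREBP, had 21.6 ± 7.02 (SD, n = 3) and 27.3 ± 6.01 (SD, n = 3). *Ppara* had the largest difference, with a log2 fold change of -0.81 (standard error 0.17, adjusted p = 0.104 in edgeR's quasi-likelihood test) that was -0.64 without wild-type replicate 2.

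In a sample of kidney tissue, fewer cells of a type and less RNA per cell cannot be told apart, and markers of the proximal tubule moved with the groups as well. Of 10 such markers, all above 0 in every library, the summed FPKM was between 1161 and 1295 in *Ptpn6*+/mev mice and between 1538 and 1651 in wild-type mice. The quasi-likelihood test called none, 5 had an unadjusted p under 0.05, all lower, and edgeR's exact test and DESeq2 each called 3. Over all tested genes 6.71% were lower at that p, and the exact test and DESeq2 called 1.78% and 1.88% lower. In the quasi-likelihood test 4 of the 10 markers were called with wild-type replicate 2 left out, 2 with wild-type replicate 3 left out and 1 with *Ptpn6*+/mev replicate 2 left out. Their median log2 fold change was -0.44, and -0.55 without wild-type replicate 2, against -0.94 and -0.82 for the 8 genes. The markers differed among themselves. *Slc13a3*, a dicarboxylate carrier, had a log2 fold change of -1.25 (standard error 0.24, adjusted p = 0.102 in edgeR's quasi-likelihood test). The most abundant markers, *Slc27a2*, *Slc34a1* and *Ggt1*, had log2 fold changes of -0.40, -0.34 and -0.12, with adjusted p of 0.447, 0.567 and 0.79 in the same test, and *Slc34a1* had fractional counts in 5 libraries. Without wild-type replicate 2 they were -0.17, -0.54 and -0.22. The part of proximal tubule content in the differences of the 8 genes was not tested.

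Among 6 markers of injured tubules none was called, and 3 were higher at an unadjusted p under 0.05, where the exact test called 0, DESeq2 1, and the fit that left out wild-type replicate 2 called 2. Over all tested genes 12.2% were at that p in either direction and 6.71% were lower. In either direction the exact test called 2.99% of all tested genes, DESeq2 2.97% and the fit without wild-type replicate 2 called 1.77%. Called lower were 1.78%, 1.88% and 1.01%, in the same order. *Havcr1*, which encodes KIM-1, averaged 1505 ± 64.6 FPKM in *Ptpn6*+/mev kidneys (SD, n = 3) against 1203 ± 100 FPKM in wild-type kidneys (SD, n = 3), a log2 fold change of 0.27 (standard error 0.10, adjusted p = 0.325 in edgeR's quasi-likelihood test). *Krt8* and *Krt18*, the keratins of simple epithelia, had log2 fold changes of 0.28 and 0.55, with adjusted p of 0.273 and 0.196 in the same test. *Lcn2* had an FPKM of 1527 ± 643 (SD, n = 3) and 1517 ± 559 (SD, n = 3). Several of the 8 genes are also strongly expressed in liver. Of 5 liver markers, 4 were tested, none was called and 3 were lower at an unadjusted p under 0.05, of which the exact test called 2 and DESeq2 3. Over all tested genes 6.71% were lower at that p, and these tests called 1.78% and 1.88% lower. *Alb* averaged 1.91 ± 0.28 FPKM in *Ptpn6*+/mev kidneys (SD, n = 3) against 5.11 ± 1.32 FPKM in wild-type kidneys (SD, n = 3). *Fgb* averaged 28.4 ± 4.2 FPKM (SD, n = 3) against 51.9 ± 13.8 FPKM (SD, n = 3). *Ttr* was higher in the *Ptpn6*+/mev mean, at 32.2 ± 6.36 FPKM (SD, n = 3) against 24.5 ± 5.75 FPKM (SD, n = 3), with a log2 fold change of 0.31 (standard error 0.22, adjusted p = 0.64 in edgeR's quasi-likelihood test). *Serpina1a*, with fractional counts in all 6 libraries, averaged 6.57 ± 2.74 FPKM (SD, n = 3) against 13.4 ± 3.75 FPKM (SD, n = 3), and *Apoa1*, which was not tested, was listed at 0 in every *Ptpn6*+/mev library. The summed FPKM of the list, mostly that of *Fgb* and *Ttr*, was 65.9 to 73.2 in *Ptpn6*+/mev mice and 81.8 to 105 in wild-type mice. The part of tubular injury and of liver-like expression in the differences was not tested.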

How the data were processed

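Kidney mRNA of 3 *Ptpn6*+/mev and 3 wild-type mice was compared, with 1 library per mouse. The authors trimmed the reads of adaptors and poor or low-complexity sequence before TopHat placed them on GRCm38.p5, and the submitters' processing notes also list Bowtie2, Cufflinks and RSEM. The authors deposited FPKM values and estimated counts per gene. Which tool gave the counts is not given in the sources used here. Estimated counts can be fractional where reads are shared, and they were rounded to whole numbers.

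Counts were normalized by TMM, filtered with filterByExpr and tested with the quasi-likelihood test of edgeR 4.0.16 in R 4.3.3, with Benjamini-Hochberg adjustment over 13036 genes and a threshold of 0.05. Alternatives used DESeq2 1.42.0, limma 3.58.1 on log2 FPKM (pseudocounts 1 and 0.1), other normalizations and filters, a block and each library left out. The standard error of a quasi-likelihood fit is the size of its log2 fold change divided by the square root of the test's F statistic. It is thus taken from that test and is not a separate measure of spread. Log2 CPM used a prior count of 2. The fits were tested on simulated data, apart from those with a library left out. Counts of 327 to 40700 per gene and library lie behind the 8 genes, so spread between mice and not counting limits precision.

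The 8 genes and the lists were chosen with earlier results of these data known. The rule for other named genes took from each list any gene at an FDR under 0.05 and otherwise the 3 most abundant and the most changed, and for *Pck1* and *Tkfc* the 3 genes most alike. Other names were chosen after their values were seen, and a few listed genes are counted but not reported by name here. For lists of markers other than proximal tubule, injured tubule and liver, called genes numbered 0 by the quasi-likelihood test, by the exact test and by DESeq2. At an unadjusted p under 0.05 there was 1 of 6 distal nephron markers (lower), 1 of 3 podocyte markers (higher), and 0 of 4 endothelial, 4 macrophage and 3 blood markers. Over all tested genes 12.2% were at that p in either direction and 6.71% were lower.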

Additional observations from a re-analysis of the deposited data

How the results depend on the processing

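All 8 genes had a log2 fold change below 0 in each of the 15 alternatives, a direction that their choice largely fixes. The number of the 8 genes at an FDR under 0.05, 2 in the reported fit, was 7 with DESeq2's Wald test and with edgeR's exact test, 1 with upper quartile normalization, 1 with limma on log2(FPKM + 1), and 0 with limma on log2(FPKM + 0.1). With each library left out it ranged from 0 to 6. Over all genes, 18 calls became 387 with DESeq2, 390 with the exact test, 8 with limma on log2(FPKM + 0.1) and 52 with no filter, and 1 to 231 with each library left out. For the other pathway genes, 0 calls became 12 with DESeq2, 11 with the exact test and 2 with no filter, and 0 to 6 with each library left out. For proximal tubule markers 0 calls became 3, 3 and 1 in the same order, and 0 to 4. Of the calls over all genes, 9 of 18 were lower in the reported fit and 6 of 19 with limma on log2(FPKM + 1). The count of genes whose groups did not overlap was run again only in log2 CPM and with each library left out. It was 7 or 8 of the 8 genes. With all 6 libraries, 6.38% of all tested genes had such groups in FPKM and 9.8% in log2 CPM, with *Ptpn6*+/mev mice lower. With a library left out, 1 group is smaller and such a gap is easier to reach. The share of all tested genes was not computed for those fits, so nothing is read from their counts. The causes were not tested. Medians over all genes under limma on FPKM were 0.06 and 0.08. Replicate numbers did not pair the mice: deviations of same-numbered mice from their group means correlated at -0.14, -0.18 and -0.13 across genes, and no mouse correlated best with its own number. With the replicate number as a block, calls were 1 over all genes and 0 among the 8 genes. Depth left 2 listed genes, *G6pc2* among them, below the filter.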
